A study of Mus musculus with 10 samples.

Results

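The proteasome genes described here are the 40 genes whose symbol begins with Psma, Psmb, Psmc or Psmd followed by a number. They were selected by symbol from the 24394 genes named in a table of expression levels. Its unit is FPKM, a count of fragments divided by the length of the transcript and the depth of the library. The rows of a gene were summed, 44 rows in all. By role they were 14 constitutive core subunits, 17 subunits of the regulatory particle, 3 immunoproteasome subunits, 2 core subunits known from testis or thymus, 3 chaperones that assemble the base of the regulatory particle, and Psmc3ip, which carries the prefix but acts in meiotic recombination and is no subunit. The level was too low to test in 3 of them (Psma8, Psmb11 and Psmd3, each under a mean of 1 FPKM), which left 37 genes tested.

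The libraries were made from messenger RNA of whole lungs of young adult female BALB/c mice. The labels number them as replicates and do not say whether a library held 1 mouse or several, so the p-values measure the spread between libraries. Saline mice (n = 3) were injected with saline and served as controls. OVA mice (n = 3) were sensitized to ovalbumin, an egg protein, with an aluminium adjuvant by intraperitoneal injection and then challenged through the nose, a standard model of allergic asthma. Herb mice (n = 4) went through the same ovalbumin protocol and were given an ethanol extract of Descurainia sophia seeds by mouth. No group had the extract without ovalbumin, so the extract was compared only within sensitized mice.

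The proteasome is the barrel-shaped protease that degrades proteins tagged with ubiquitin. Its core consists of outer alpha rings that form the gate and inner beta rings that hold the proteolytic sites, of caspase-like, trypsin-like and chymotrypsin-like specificity, and the regulatory particle on its end recognises ubiquitin, removes it, and unfolds the substrate with a ring of ATPases. In leukocytes and in cells exposed to interferon gamma, 3 inducible catalytic subunits replace the constitutive ones and give the immunoproteasome, which is known for generating peptides presented on MHC class I.

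Sequences before the start are shown for genes of the catalytic pairs, because the comparisons below turn on them. The constitutive subunits are Psmb6 (caspase-like site, chromosome 11, 70525324 to 70527858), Psmb7 (trypsin-like site, chromosome 2, 38588046 to 38643952) and Psmb5 (chymotrypsin-like site, chromosome 14, 54614120 to 54617995). Their inducible counterparts are Psmb9 (chromosome 17, 34182030 to 34187330), Psmb10 (chromosome 8, 105935728 to 105938392) and Psmb8 (chromosome 17, 34198195 to 34201454). Psmb9 and Psmb8 lie on either side of Tap1, a peptide transporter of the MHC class I pathway. Only 225 bases separate the start of Psmb9 from that of Tap1, and they are printed whole. The sequences are from RefSeq (GRCm38.p6), 5′ to 3′ on the strand of the gene, ending at the base before the start of the promoter set. For Psmb6 only the 30 bases before that start are shown, which lie inside the span annotated for the gene. Capitals mark matches to 3 motifs, searched on both strands: TGACNNNGC, the core of the antioxidant response element bound by NFE2L1 and NFE2L2; GAAA repeated after any 2 bases, the core of the interferon-stimulated response element; and CCAAT, the CCAAT box.
Psmb5, chr14:54617996-54618245, minus strand: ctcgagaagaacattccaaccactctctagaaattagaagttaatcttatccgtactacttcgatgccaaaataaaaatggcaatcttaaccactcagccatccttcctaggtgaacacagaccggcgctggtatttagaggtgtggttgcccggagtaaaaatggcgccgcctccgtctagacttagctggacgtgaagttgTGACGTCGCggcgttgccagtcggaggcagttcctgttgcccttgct
Psmb6, chr11:70525327-70525356, plus strand: acagaggcggactaaagagagTGACGGAGC
Psmb8, chr17:34197945-34198194, plus strand: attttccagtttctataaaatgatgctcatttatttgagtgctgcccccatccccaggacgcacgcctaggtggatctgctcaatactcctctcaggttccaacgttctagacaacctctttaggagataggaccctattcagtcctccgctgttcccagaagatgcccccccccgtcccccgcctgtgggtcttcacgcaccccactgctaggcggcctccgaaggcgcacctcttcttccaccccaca
Psmb9, chr17:34187331-34187555, minus strand: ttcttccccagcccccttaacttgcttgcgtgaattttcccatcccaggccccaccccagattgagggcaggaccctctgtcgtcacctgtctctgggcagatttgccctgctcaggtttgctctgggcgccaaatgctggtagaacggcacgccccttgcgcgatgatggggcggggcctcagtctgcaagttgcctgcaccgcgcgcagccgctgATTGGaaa
Psmb10, chr8:105938393-105938642, minus strand: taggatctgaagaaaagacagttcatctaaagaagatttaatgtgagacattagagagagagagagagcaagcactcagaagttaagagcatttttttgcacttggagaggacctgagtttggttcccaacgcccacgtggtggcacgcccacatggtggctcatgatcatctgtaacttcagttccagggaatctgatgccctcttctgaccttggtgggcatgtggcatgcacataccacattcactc
Psmd9, chr5:123227940-123228189, plus strand: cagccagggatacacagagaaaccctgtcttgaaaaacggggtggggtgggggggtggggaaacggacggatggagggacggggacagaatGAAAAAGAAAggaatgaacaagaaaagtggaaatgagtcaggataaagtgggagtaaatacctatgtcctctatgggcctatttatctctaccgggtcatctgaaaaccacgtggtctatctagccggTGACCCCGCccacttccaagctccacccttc

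Promoters (250 bases before to 50 after the start) were found in the RefSeq set for 33 of the 40 genes, 35 promoters in all. The antioxidant response element core was present in 14.3% of these 35, against 12.4% of all 32851 promoters. It lay in Psmb5 and Psmb6 of the core, in Psmc6 and Psmd12 of the regulatory particle, and in the chaperone gene Psmd9. The CCAAT box was present in 40.0%, against 37.4% of all promoters, and Psmb9 held it on the opposite strand, beginning 8 bases before its start. The interferon-stimulated core was present in 3 of the 35 (8.57%, against 3.44% of all), in Psmb3, Psmd4 and Psmd9, and in none of the 3 immunoproteasome promoters. Psmd9, shown because it was the 1 member called higher in OVA after rescaling, held both the antioxidant and the interferon-stimulated core. These are matches of letters. Psmd9 was chosen by its values, and no relation of the motifs to the measurements was tested.

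The groups differed in what their libraries were made of, which bears on every value below. The depth, estimated from the steps between low FPKM values, was 14900000 to 21400000 fragments in Saline, 20250000 to 29550000 in OVA and 14700000 to 21300000 in Herb. The share of fragments on rows named by a RefSeq protein-coding transcript was 33.2% ± 0.207 in Saline, 13.4% ± 1.49 in OVA and 22.8% ± 2.83 in Herb (SD, n = 3, 3 and 4). It leaves out the unnamed assembled models described further on, as does the protein-coding FPKM used below. In the same order of groups Rn45s, the ribosomal RNA precursor, stood at 1201 to 1386 FPKM, 10014 to 13531 FPKM and 3230 to 7019 FPKM. Rn45s and the proteasome genes were thus in opposite order across the groups, and how much of each difference comes from this shift was not tested. Results are therefore given as deposited and after each library was rescaled to a common 75th percentile of the detected genes, which brought the median log2 fold change of all genes in OVA vs Saline from -0.75 to 0.00. Markers of lung cells were present (Sftpc, the surfactant protein of alveolar type II cells, at 2371 to 3228 FPKM in Saline). The summed level of 18 leukocyte markers was 1397 to 1709 FPKM in Saline, 85.8 to 327 FPKM in OVA and 375 to 1013 FPKM in Herb. Most of it was 1 lysozyme gene, Lyz2, so the sum mainly follows that gene, and which cells it came from was not tested. None of the 18 was listed at 0 in all libraries of a group. With whole lung, fewer cells of a type and less RNA per cell cannot be told apart.

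In control lung the core genes were the more abundant ones. The 14 core genes had a median level of 28.5 FPKM in Saline, from 8.01 FPKM for Psmb2 to 43.2 FPKM ± 3.47 (SD, n = 3) for Psma7. The 17 regulatory genes had a median of 17.3 FPKM, with Psmc6 highest at 24.2 FPKM ± 5.82 (SD, n = 3). The immunoproteasome genes stood below the core median in Saline, and Psmb8 and Psmb9 above the lowest core genes, Psmb5 and Psmb2: Psmb8 had 14.98 FPKM ± 3.91 (SD, n = 3), Psmb9 10.6 FPKM ± 2.33 (SD, n = 3) and Psmb10 3.79 FPKM ± 3.05 (SD, n = 3). The 8 highest-ranking members in Saline were all core genes (Psma7, Psma2, Psmb1, Psma6, Psmb7, Psmb4, Psma1 and Psmb3), though neighbours in this order differed by less than the larger of their SDs. Psmb11, the catalytic subunit of thymic epithelium, was listed at 0 in 7 of 10 libraries and at no more than 0.0116 FPKM in the others. Psma8, the testis form of Psma7, had 0.136, 0.165 and 0.288 FPKM in Saline, and at most 0.319 FPKM in any library. Psmd3, a lid subunit and the third untested member, had 2.38, 0.410 and 1.34 FPKM in Saline, 0.00568, 0.230 and 0.00243 FPKM in OVA and 1.71, 0.991, 0.0154 and 1.25 FPKM in Herb, and Herb replicate 3 lay among the OVA values.

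**Figure D1:**
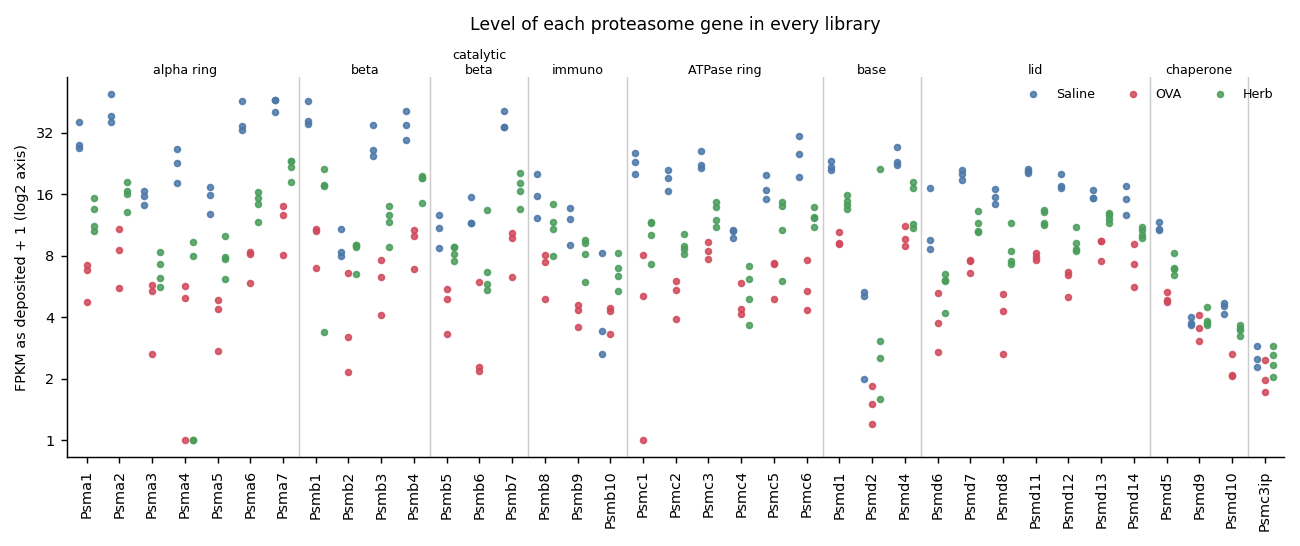
Level of the 37 tested genes (x axis, grouped by role) in every library, as FPKM as deposited plus 1 on a log2 axis; each point is 1 library, coloured by group. Saline points lie highest for most genes, OVA points lowest and Herb points between; Saline and OVA overlap for Psmb10, Psmd9 and Psmc3ip, and Psma4 and Psmc1 hold points listed at 0.

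The first comparison asked what changed in the asthma model. Most proteasome genes were lower in OVA than in Saline as deposited, and their median lay below that of all genes on every scale given here. As deposited, 33 of 37 were lower and 0 higher by limma (adjusted p under 0.05), where 57.9% of all 11205 genes tested were lower and 3.28% higher (at an unadjusted p under 0.05, also 33 lower and 0 higher, where 65% of all genes passed in either direction). Their median log2 fold change was -1.47, against -0.75 for all genes and -1.09 for the 4417 genes in the same range of level (4.02 to 19.5 FPKM). Of these 4417 genes, 72.7% were lower and 1.63% higher. After rescaling, 18 of 37 were lower and 1 higher by limma, where 20.9% of 11176 genes were lower and 20.8% higher. The median was then -0.69, against 0.00 for all genes and -0.19 for genes of the same level, of which 28.5% were lower and 17.1% higher. Scaled to the sum of protein-coding FPKM, which set the median of all genes to 0.38, the members stood at -0.22 with 11 lower and 3 higher, beside 8.69% of all genes lower and 39.2% higher. After quantile normalization they stood at -0.44 with 13 lower and 2 higher, beside 17.1% and 18.6% of all genes. Short transcripts were lower more often than long ones after rescaling: of all genes in this range of level, 41.0% of those under 1000 nt and 30.1% of those of 1000 to 2000 nt were lower. The latter had a median of -0.27, and the 24 members of that length a median of -0.64 with 11 lower. Genes under 1000 nt had a median of -0.50, and the 5 members of that length a median of -0.999 with 2 lower, a share near that of all such genes. Genes of 2000 to 4000 nt had a median of -0.19, with 28.8% lower and 17.4% higher. The 7 members of that length had a median of -0.82, with 4 lower and 1 higher. The 1 longer member, Psmd5, stood at -0.28, beside -0.20 for genes of that length.

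**Figure D2:**
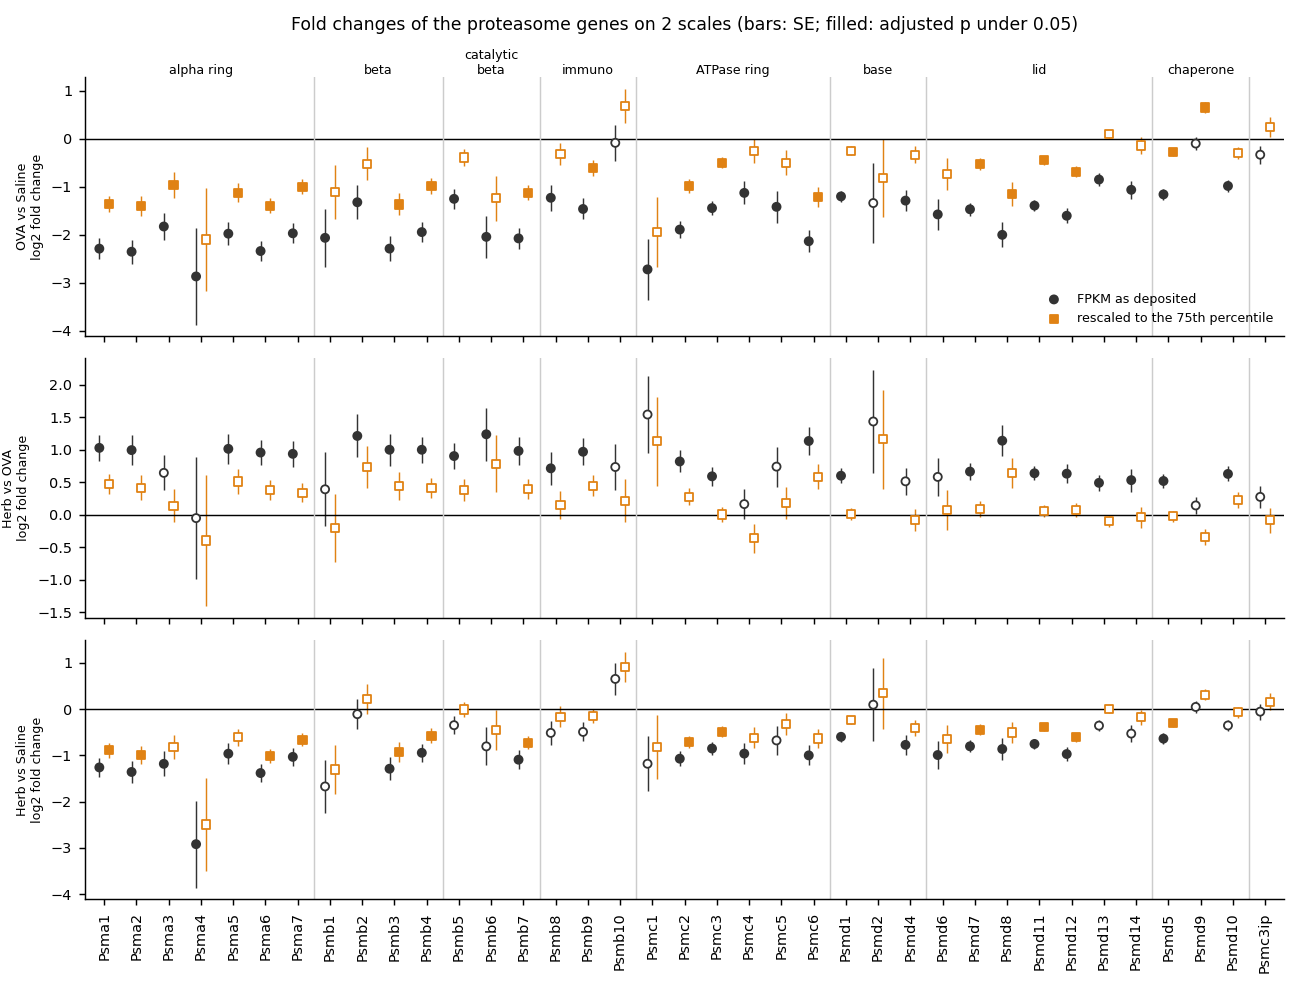
Log2 fold change of FPKM + 1 (y axis) of each gene (x axis, by role) in the 3 comparisons, as deposited (circles) and rescaled to the 75th percentile (squares); bars are SE from limma and filled symbols have an adjusted p under 0.05. In OVA vs Saline core genes lie near -2 as deposited and near -1 rescaled, Psmd9 lies above 0 after rescaling, and in Herb vs OVA no square is filled.

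The alpha ring, which forms the gate of the core, had the largest median decrease of the classes. All 7 genes were lower in OVA as deposited, with a median log2 fold change of -2.29, and 6 of 7 were lower after rescaling, with a median of -1.36. Psma7, the most abundant member, had 39.2, 45.4 and 45.05 FPKM in Saline, 7.09, 11.7 and 12.9 FPKM in OVA and 22.2, 22.3, 17.3 and 20.8 FPKM in Herb. The 3 groups did not overlap, with OVA lowest and Herb between. The log2 fold change in OVA vs Saline was -1.97 ± 0.21 (SE) as deposited and -0.999 ± 0.16 (SE) rescaled (limma, adjusted p = 0.000151 and 0.00189). Psma3, the least changed alpha gene, had 14.6, 15.6 and 13.2 FPKM in Saline, 1.63, 4.77 and 4.38 FPKM in OVA and 6.32, 4.60, 5.21 and 7.33 FPKM in Herb. OVA replicate 1 was the lowest library, and Herb overlapped OVA. Its rescaled log2 fold change was -0.96 ± 0.27 (limma SE, adjusted p = 0.0212). Psma1, Psma2, Psma5 and Psma6 lay between, at -1.36, -1.40, -1.12 and -1.39 on the rescaled log2 scale, each with a limma adjusted p of at most 0.00301. Psma4 had the largest fitted change but not a stable one: its rows had 21.7, 25.7 and 17.1 FPKM in Saline, 4.67, 3.96 and 0 FPKM in OVA and 8.31, 0, 6.99 and 0 FPKM in Herb. OVA replicate 3 and Herb replicates 2 and 4 were listed at 0 beside others at several FPKM, and the rescaled difference of -2.10 ± 1.08 (SE) did not pass (limma, adjusted p = 0.147). The unnamed models next to it in the table are described further on.

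The beta ring showed the same order of groups. Of the 4 beta subunits without a catalytic site, all were lower as deposited (median -2.01) and 2 after rescaling (Psmb3 and Psmb4, class median -1.05). Psmb1, the most abundant, had 34.2, 44.9 and 35.5 FPKM in Saline, 6.002, 9.58 and 9.86 FPKM in OVA and 16.5, 20.2, 2.39 and 16.7 FPKM in Herb. Herb replicate 3 stood far below the other Herb libraries, and with it in the fit the rescaled log2 fold change of -1.10 ± 0.56 (SE) in OVA vs Saline had a limma adjusted p of 0.143. Psmb3, which changed most, had 23.7, 34.1 and 25.4 FPKM in Saline, 3.09, 5.26 and 6.66 FPKM in OVA and 13.0, 10.7, 7.80 and 11.6 FPKM in Herb, a rescaled log2 fold change of -1.37 ± 0.23 (limma SE, adjusted p = 0.0024). On the same scale Psmb4 stood at -0.99 ± 0.17 (limma SE, adjusted p = 0.0025). Psmb2, the least abundant, had 7.36, 6.93 and 9.75 FPKM in Saline, 1.16, 2.199 and 5.59 FPKM in OVA and 7.79, 8.04, 5.50 and 8.05 FPKM in Herb. Its OVA libraries spread from 1.16 to 5.59 FPKM, and it was lower as deposited (-1.32 ± 0.35, limma SE, adjusted p = 0.00961) and not past the threshold rescaled (-0.52 ± 0.35, SE, adjusted p = 0.262).

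The 3 constitutive catalytic subunits were all lower as deposited, and 1 of them, Psmb7, also after rescaling. Psmb7, of the trypsin-like site, had 33.2, 39.7 and 33.2 FPKM in Saline, 5.29, 8.72 and 9.38 FPKM in OVA and 17.1, 19.4, 12.6 and 15.5 FPKM in Herb. No OVA library reached the lowest Saline library, and the log2 fold change was -2.08 ± 0.22 (SE) as deposited and -1.12 ± 0.16 (SE) rescaled (limma, adjusted p = 0.000151 and 0.00142). Psmb6, of the caspase-like site, had 10.6, 14.5 and 10.6 FPKM in Saline, 1.28, 1.19 and 4.91 FPKM in OVA and 5.67, 4.42, 4.84 and 12.3 FPKM in Herb. OVA replicate 3 and Herb replicate 4 stood well above the rest of their groups, and the rescaled change of -1.24 ± 0.47 (SE) had a limma adjusted p of 0.0614. Psmb5, of the chymotrypsin-like site, had 9.89, 11.6 and 7.72 FPKM in Saline, 2.29, 3.90 and 4.50 FPKM in OVA and 7.19, 7.85, 6.58 and 7.81 FPKM in Herb. It was lower as deposited (-1.25 ± 0.21, limma SE, adjusted p = 0.000746), and rescaled the change was -0.39 ± 0.18 (SE, adjusted p = 0.114), the smallest in the core; scaled to the protein-coding sum it stood at 0.05.

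The regulatory particle was lower by less. Of 16 tested genes, 15 were lower as deposited (median -1.43, Psmd2 the exception) and 7 after rescaling (median -0.52, against -1.12 for the core, of which 14 and 9 of 14 were lower). The core transcripts are shorter, with a median length of 1162.5 nt against 1613.5 nt, and the part of length in the gap between the classes was not tested. Among the 6 ATPases that unfold the substrate, Psmc2, Psmc3 and Psmc6 were lower on both scales. Psmc3, the ATPase with the highest mean over all 10 libraries, had 20.5, 24.9 and 21.1 FPKM in Saline, 6.74, 7.46 and 8.35 FPKM in OVA and 13.7, 12.8, 10.02 and 10.9 FPKM in Herb. Its groups did not overlap, and its rescaled log2 fold change was -0.50 ± 0.12 (limma SE, adjusted p = 0.0123). On the same scale Psmc2 stood at -0.99 ± 0.14 (SE, adjusted p = 0.00149) and Psmc5 at -0.50 ± 0.26 (SE, adjusted p = 0.157), the latter -0.17 (adjusted p = 0.344) with the adjoining model described further on. The change of Psmc6 was larger than that of Psmc3, -1.22 ± 0.21 on the rescaled log2 scale (limma SE, adjusted p = 0.00258). Psmc4, the least abundant and least changed ATPase, had 8.81, 9.52 and 9.74 FPKM in Saline, 3.13, 3.37 and 4.87 FPKM in OVA and 2.66, 5.14, 3.93 and 6.16 FPKM in Herb. OVA and Herb overlapped, and the rescaled difference of -0.25 ± 0.24 (SE) had a limma adjusted p of 0.429, with 0.19 when scaled to the protein-coding sum. Psmc1 had 22.0, 24.6 and 19.1 FPKM in Saline, 4.06, 7.08 and 0 FPKM in OVA and 10.6, 10.8, 6.32 and 9.15 FPKM in Herb, with a single OVA library listed at 0, and a rescaled difference of -1.95 ± 0.73 (limma SE, adjusted p = 0.0592).

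None of the 3 non-ATPase base genes passed after rescaling, and for Psmd4 and Psmd1 the sign turned under other scalings (0.15 and 0.24 scaled to the protein-coding sum, 0.13 and 0.16 after quantile normalization). Psmd4, a ubiquitin receptor, had 22.1, 26.3 and 21.2 FPKM in Saline, 8.66, 10.1 and 7.89 FPKM in OVA and 16.2, 17.3, 10.5 and 9.89 FPKM in Herb. The level of OVA was below that of Saline in every library as deposited (-1.29 ± 0.23 on the log2 scale, limma SE, adjusted p = 0.001), and rescaled the difference was -0.33 ± 0.18 (SE, adjusted p = 0.175). Psmd1, a scaffold of the base, had 20.02, 20.8 and 22.4 FPKM in Saline, 8.16, 9.48 and 8.20 FPKM in OVA and 13.8, 14.8, 12.5 and 13.1 FPKM in Herb, tight within each group, and a rescaled difference of -0.25 ± 0.10 (limma SE, adjusted p = 0.0748). Psmd2, the other large scaffold, had 4.09, 0.994 and 4.31 FPKM in Saline, 0.509, 0.832 and 0.202 FPKM in OVA and 20.3, 2.07, 0.596 and 1.53 FPKM in Herb. Herb replicate 1 stood far above every other library, and neither scale gave a call in any comparison for this gene.

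The lid carries the deubiquitinase that removes the ubiquitin chain. All 7 tested lid genes were lower as deposited (median -1.47), and Psmd7, Psmd8, Psmd11 and Psmd12 were lower after rescaling (class median -0.53). Psmd8 changed most, with 14.6, 16.03 and 13.4 FPKM in Saline, 1.66, 3.30 and 4.19 FPKM in OVA and 6.58, 7.48, 6.30 and 10.6 FPKM in Herb. Its OVA libraries lay far below Saline and its Herb libraries between, and the rescaled log2 fold change was -1.15 ± 0.25 (limma SE, adjusted p = 0.00666). Psmd11, the most abundant lid gene, had 19.7, 20.3 and 19.3 FPKM in Saline, 6.60, 7.21 and 6.92 FPKM in OVA and 12.1, 12.4, 10.4 and 10.5 FPKM in Herb. The libraries of each group lay close together, and the change was -0.45 ± 0.09 (SE) on the rescaled log2 scale (limma, adjusted p = 0.00564), though 0.03 when scaled to the protein-coding sum. Psmd13 changed least, with 15.8, 14.4 and 14.3 FPKM in Saline, 6.58, 8.43 and 8.44 FPKM in OVA and 11.2, 11.7, 10.5 and 12.0 FPKM in Herb. It was lower as deposited (-0.85 ± 0.13, limma SE, adjusted p = 0.000465), beside -0.75 for the median of all genes, and rescaled it stood at 0.09 ± 0.10 (SE, adjusted p = 0.481). Psmd13 was called higher scaled to the protein-coding sum (0.56, limma adjusted p = 0.00356) and after quantile normalization (0.40, adjusted p = 0.0309), so its direction depends on the scale. On the rescaled log2 scale Psmd7 and Psmd12 stood at -0.53 ± 0.13 and -0.69 ± 0.11 (limma SE, adjusted p = 0.00976 and 0.00227). Psmd14, the deubiquitinase itself, had a rescaled difference of -0.14 ± 0.17 (limma SE, adjusted p = 0.534). Psmd6, the least abundant tested lid gene, had 8.54, 16.2 and 7.66 FPKM in Saline, 2.75, 1.71 and 4.26 FPKM in OVA and 5.10, 5.54, 3.19 and 5.04 FPKM in Herb, with Saline replicate 2 high, and a rescaled difference of -0.73 ± 0.33 (SE, adjusted p = 0.104).

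Of the 3 base chaperones, which help to build the ATPase ring, 2 were lower as deposited and 1 was lower and 1 higher after rescaling. Psmd9 had 2.997, 2.74 and 2.65 FPKM in Saline, 2.04, 2.55 and 3.11 FPKM in OVA and 3.46, 2.65, 2.77 and 2.82 FPKM in Herb. Its groups overlapped as deposited (-0.10 ± 0.13, limma SE, adjusted p = 0.545), while most transcripts were lower in OVA, and after rescaling it was the 1 member called higher (0.65 ± 0.12, SE, adjusted p = 0.00404). Psmd5, the most abundant of the 3, had 10.7, 9.70 and 9.82 FPKM in Saline, 3.75, 4.29 and 3.85 FPKM in OVA and 5.97, 7.24, 5.43 and 5.90 FPKM in Herb, and a rescaled log2 fold change of -0.28 ± 0.09 (limma SE, adjusted p = 0.0341), though 0.17 when scaled to the protein-coding sum. Psmd10, an assembly factor also called gankyrin, had 3.52, 3.16 and 3.68 FPKM in Saline, 1.09, 1.06 and 1.64 FPKM in OVA and 2.67, 2.48, 2.23 and 2.53 FPKM in Herb, with -0.30 ± 0.13 (limma SE, adjusted p = 0.0874) rescaled. Psmc3ip did not pass on either scale (-0.33 and 0.24, limma adjusted p = 0.149 and 0.361).

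Of the 3 immunoproteasome genes, 2 were lower in OVA as deposited and 1 after rescaling, with medians of -1.23 and -0.31, the smallest among the 3 subunit classes. Psmb8 had 19.0, 11.2 and 14.7 FPKM in Saline, 3.93, 6.49 and 7.06 FPKM in OVA and 10.7, 9.85, 6.95 and 13.3 FPKM in Herb. OVA lay below Saline in every library, with a log2 fold change of -1.23 ± 0.28 (limma SE, adjusted p = 0.00387), and rescaled the difference was -0.31 ± 0.23 (SE, adjusted p = 0.308), turning to 0.15 when scaled to the protein-coding sum. Psmb9 had 12.6, 8.04 and 11.1 FPKM in Saline, 2.57, 3.58 and 3.33 FPKM in OVA and 7.16, 8.27, 4.96 and 8.52 FPKM in Herb. It was lower on both scales, at -1.46 ± 0.22 (SE) as deposited and -0.60 ± 0.17 (SE) rescaled (limma, adjusted p = 0.000437 and 0.0202). Psmb10 had 2.44, 1.66 and 7.28 FPKM in Saline, 3.31, 2.30 and 3.46 FPKM in OVA and 5.33, 7.26, 4.35 and 5.93 FPKM in Herb. Saline replicate 3 stood above the other Saline libraries and Saline overlapped OVA and Herb, and neither the deposited (-0.08 ± 0.37, SE) nor the rescaled difference (0.69 ± 0.35, SE) passed (limma, adjusted p = 0.858 and 0.147).

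A ratio of the inducible to the constitutive subunit of the same site, taken within a library, does not depend on the scaling between libraries. Of the 3 pairs, only that of the trypsin-like site separated Saline from the other groups. The ratio Psmb10/Psmb7 was 0.0733, 0.0416 and 0.219 in Saline, 0.625, 0.264 and 0.369 in OVA and 0.311, 0.374, 0.345 and 0.383 in Herb. All Saline values lay below all OVA and Herb values. The log2 ratio was -3.51 ± 1.22 in Saline, -1.35 ± 0.63 in OVA and -1.51 ± 0.13 in Herb (SD, n = 3, 3 and 4). The difference of 2.17 in OVA vs Saline (4.49-fold) had a two-sided exact permutation p of 0.1, and that of 2.01 in Herb vs Saline p = 0.0571, each the smallest that these group sizes allow by exact permutation, with an adjusted p of 0.45 over the 9 ratio tests. Leaving out 1 library at a time gave 1.63 to 2.83 in OVA vs Saline, the highest without Saline replicate 3. The gap was smaller with the unnamed assembled model of the adjoining row added to Psmb10, when the ratio was 0.280, 0.199 and 0.326 in Saline, 0.978, 0.8293 and 0.727 in OVA and 0.529, 0.466, 0.707 and 0.596 in Herb. The groups were still apart, with OVA highest, and the log2 difference was 1.67 in OVA vs Saline and 1.11 in Herb vs Saline (exact permutation p = 0.1 and 0.0571).

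The other pairs did not separate. The ratio Psmb9/Psmb6 was 1.20, 0.556 and 1.04 in Saline, 2.002, 3.02 and 0.678 in OVA and 1.26, 1.87, 1.03 and 0.691 in Herb. OVA replicate 3 lay below OVA replicates 1 and 2 by a wide margin, and the log2 difference of 0.85 ± 0.73 (SE) in OVA vs Saline had an exact permutation p of 0.3. The ratio Psmb8/Psmb5 was 1.92, 0.964 and 1.90 in Saline, 1.71, 1.66 and 1.57 in OVA and 1.48, 1.25, 1.06 and 1.70 in Herb. The groups overlapped throughout, with a log2 difference of 0.11 ± 0.33 (SE) in OVA vs Saline (exact permutation p = 1) and of -0.28 ± 0.18 (SE) in Herb vs OVA (exact permutation p = 0.171, with 0.0571 the smallest possible).

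**Figure D3:**
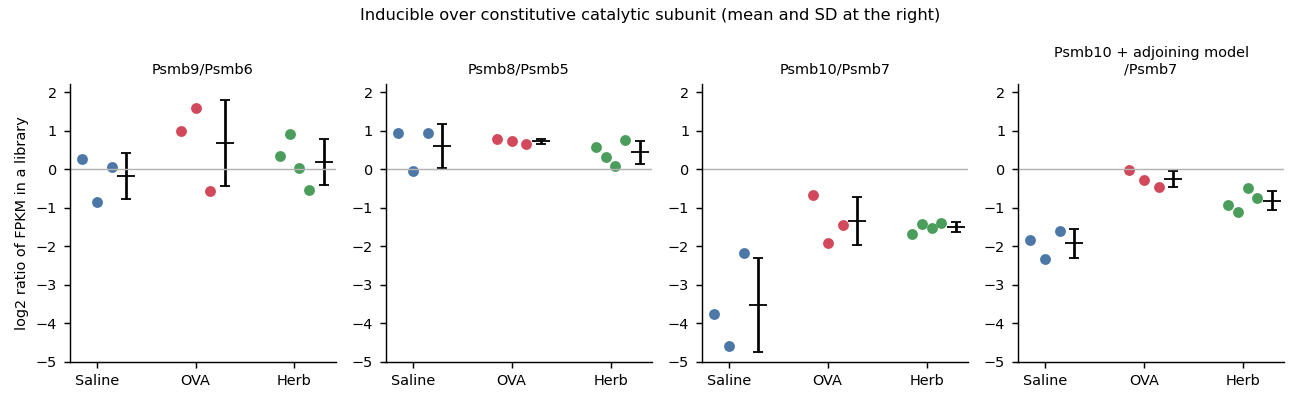
Log2 ratio of the FPKM of the inducible to the constitutive catalytic subunit (y axis) in each library (points, by group on the x axis), with the group mean and SD as a bar to the right. Psmb10/Psmb7 is lowest in the 3 Saline libraries with and without the adjoining assembled model; Psmb9/Psmb6 and Psmb8/Psmb5 overlap between groups.

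By the rows under the gene symbols, Saline stood apart in the balance between the classes. OVA and Herb overlapped in each share, and no test was run on the shares. The core transcripts are shorter than the regulatory ones, and the part of length in the shares was not tested. The core took 53.5, 57.2 and 53.5% in Saline, 38.9, 44.2 and 47.9% in OVA and 46.2, 47.0, 46.3 and 49.1% in Herb of the joint FPKM of the core, regulatory and immunoproteasome genes, and no OVA or Herb library reached the lowest Saline library. The regulatory share was 41.0, 40.0 and 41.3% in Saline, 54.0, 49.4 and 44.98% in OVA and 47.5, 46.0, 47.5 and 42.7% in Herb, above Saline in each OVA and Herb library. The immunoproteasome share was 5.53, 2.83 and 5.17% in Saline, 7.14, 6.41 and 7.07% in OVA and 6.27, 6.95, 6.25 and 8.24% in Herb, with all Saline values below all others. As group means the core share was 54.7% ± 2.13 (SD, n = 3), 43.7% ± 4.57 (SD, n = 3) and 47.1% ± 1.35 (SD, n = 4), and the immunoproteasome share 4.51% ± 1.47, 6.87% ± 0.40 and 6.93% ± 0.934 (SD, n = 3, 3 and 4). With the adjoining models added, the core share was 51.6%, 39.0% and 44.97%, and the immunoproteasome share 4.96%, 7.58% and 7.10%. All 40 genes together made up 0.491%, 0.383% and 0.395% of the protein-coding FPKM in Saline, OVA and Herb.

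**Figure D4:**
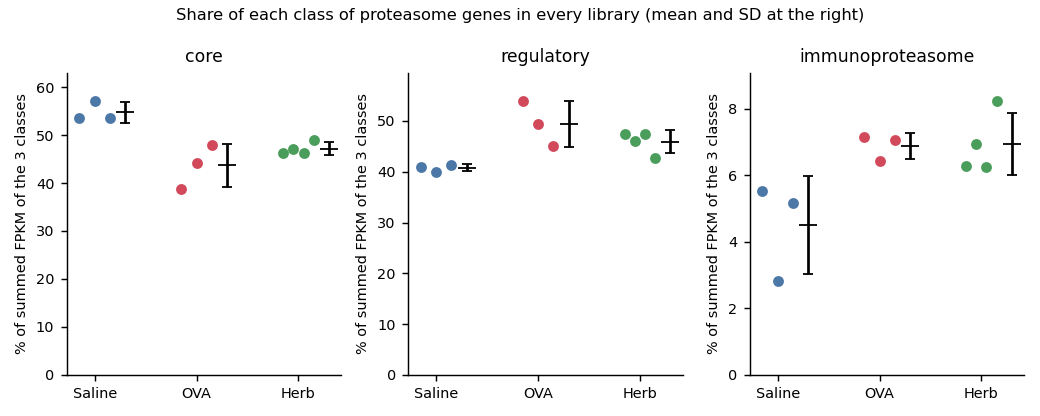
Share of the core, regulatory and immunoproteasome genes in the summed FPKM of the 3 classes (y axis, percent, from 0) in each library (points, by group), with the group mean and SD to the right. The core share is highest and the other shares are lowest in the 3 Saline libraries, and OVA and Herb overlap in all 3 panels.

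Several members were listed at or near 0 in single libraries in which an unnamed transcript model, assembled in the study and placed in the adjoining rows of the table, held a level instead. The table gives no coordinates, so the models (MSTRG numbers of the assembler) were paired with a gene only by their adjoining rows, after the values had been seen. The clearest case is Psma4: where its rows stood at 0 in OVA replicate 3 and Herb replicates 2 and 4, the adjoining models held 5.43, 12.1 and 9.49 FPKM. Summed with them, Psma4 had 24.3, 28.1 and 26.3 FPKM in Saline, 5.16, 5.89 and 5.43 FPKM in OVA and 12.3, 12.1, 8.90 and 9.49 FPKM in Herb, without any library standing apart. On these sums it was lower in OVA on both scales (-2.07 ± 0.15 and -1.13 ± 0.11, limma SE, adjusted p = 0.000134 and 0.000703).

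The same held for other members. Psmb1 in Herb replicate 3 went from 2.39 to 17.5 FPKM, beside 16.5, 20.2 and 16.7 FPKM in the other Herb libraries, and was then lower in OVA also after rescaling (-1.10 ± 0.16, limma SE, adjusted p = 0.00159). Psmc1 in OVA replicate 3 went from 0 to 5.31 FPKM, beside 5.27 and 8.37 FPKM in the other OVA libraries (-1.02 ± 0.15 rescaled, SE, adjusted p = 0.00155). Psmd2 and Psmd3 were low under their own symbols in most libraries. Psmd2 then had 24.5, 24.3 and 25.99 FPKM in Saline, 9.21, 12.1 and 10.8 FPKM in OVA and 21.1, 20.3, 16.8 and 18.2 FPKM in Herb. It was lower in OVA as deposited (-1.15 ± 0.14, limma SE, adjusted p = 0.000197) and not past the threshold rescaled (-0.18, adjusted p = 0.126). Psmd3 then had 12.4, 12.4 and 13.5 FPKM in Saline, 6.09, 6.84 and 6.28 FPKM in OVA and 8.997, 9.06, 7.33 and 8.50 FPKM in Herb, with a rescaled difference of 0.03 ± 0.09 (limma SE, adjusted p = 0.825). Psmb10 had 9.29, 7.90 and 10.8 FPKM in Saline, 5.17, 7.23 and 6.82 FPKM in OVA and 9.06, 9.06, 8.90 and 9.23 FPKM in Herb, which made it lower in OVA as deposited (-0.48 ± 0.15, limma SE, adjusted p = 0.0189) and higher rescaled (0.43 ± 0.12, SE, adjusted p = 0.0219), so its direction depends on the scale. With models added to these 6 genes and to Psmc5, 36 of 38 members were lower in OVA as deposited, beside 6490 of all 11206 genes. After rescaling 21 were lower and 2 higher (Psmd9 and Psmb10), beside 2342 lower and 2330 higher of 11177 genes. Of genes in the same range of level, 78.2% were lower as deposited, and 33.4% were lower and 14.8% higher rescaled.

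**Figure D5:**
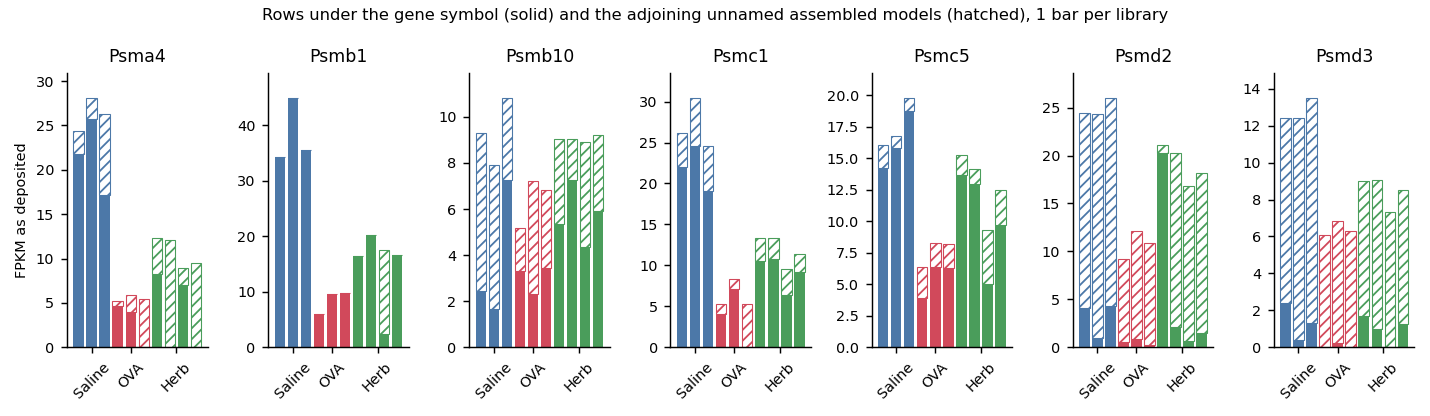
FPKM as deposited (y axis, from 0) of the rows under the gene symbol (solid) and of the adjoining unnamed models (hatched), stacked, for 7 genes; each bar is 1 library, in the order Saline 1 to 3, OVA 1 to 3 and Herb 1 to 4. Single low solid bars, such as Psma4 in OVA replicate 3 or Psmb1 in Herb replicate 3, are filled up by the hatched part to the level of their group.

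The next comparison asked what the extract changed in sensitized mice. As deposited, 25 of 37 members were higher in Herb than in OVA and 0 lower by limma, where 44% of all genes were higher and 0.446% lower. The median log2 fold change was 0.73, against 0.48 for all genes and 0.66 for genes of the same level, of which 58.7% were higher. After rescaling, 0 of 37 passed in either direction by limma (0.367% of all genes higher and 0.358% lower), 10 had an unadjusted p under 0.05, a share near the 27.1% of all genes, and the median was 0.22 against 0.03 for all genes and 0.11 for genes of the same level. Without OVA replicate 3 the number was 1 higher, beside 38 higher and 22 lower of 11209 genes. Scaled to the protein-coding sum it was 1 lower (5.6% of all genes lower and 0.693% higher). The core had 11 of 14 genes higher as deposited (median 0.99, 0.40 rescaled), the regulatory particle 10 of 16 (0.63 and 0.08) and the immunoproteasome 2 of 3 (0.73 and 0.22). Among catalytic subunits, Psmb6, Psmb7, Psmb5, Psmb8 and Psmb9 passed as deposited, with Psmb9 at 0.97 ± 0.20 (limma SE, adjusted p = 0.00825) and 0.45 ± 0.16 (SE, adjusted p = 0.119) rescaled. Psma1 and Psmc6, named after their values were seen, had the smallest unadjusted p after rescaling, at 0.47 ± 0.15 and 0.58 ± 0.20 (limma SE, adjusted p = 0.106 and 0.109). Psmd9 stood at -0.34 ± 0.12 (SE, adjusted p = 0.112) rescaled and 0.14 as deposited. On the rescaled log2 scale Psmd13, Psmd1, Psmd5 and Psmc3 stood at -0.10, 0.01, -0.02 and 0.00. This comparison and that of OVA with Saline share the OVA libraries, so a high or low OVA value moves both.

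Compared with Saline, which had neither ovalbumin nor extract, many members were lower in Herb. As deposited 22 of 37 were lower and 0 higher by limma, beside 22.7% of all genes lower and 3.32% higher, with a median log2 fold change of -0.85 against -0.27 for all genes and -0.42 for genes of the same level, of which 31.9% were lower. After rescaling 13 were lower and 0 higher (6.79% of all genes lower and 7.86% higher), with a median of -0.49 against 0.03 for all genes and -0.06 for genes of the same level, of which 9.53% were lower. The 13 were the core genes Psma1, Psma2, Psma6, Psma7, Psmb3, Psmb4 and Psmb7, the regulatory genes Psmc2, Psmc3, Psmd7, Psmd11 and Psmd12, and the chaperone gene Psmd5. Psma6, an alpha subunit named for the smallest adjusted p after its values were seen, had 32.1, 44.9 and 33.6 FPKM in Saline, 4.89, 7.20 and 7.35 FPKM in OVA and 13.4, 15.3, 10.7 and 14.4 FPKM in Herb. The highest Herb library lay far below the lowest Saline library, at -1.01 ± 0.15 (SE) on the rescaled log2 scale (limma, adjusted p = 0.0124). None of the 3 immunoproteasome genes passed on either scale. Rescaled, Psmb8 and Psmb9 stood at -0.16 and -0.15, and Psmb10 at 0.91 (limma, adjusted p = 0.645, 0.543 and 0.0945). The number of calls after rescaling depended on single libraries: it was 0 without Saline replicate 2 (0.162% of all genes lower and 0.126% higher, and 16 members at an unadjusted p under 0.05), 4 lower and 1 higher without Saline replicate 3, and 8, 4 and 5 lower without Herb replicates 1, 3 and 4. Calls among all genes fell too, from 759 lower and 878 higher with all libraries. There were 176 lower and 229 higher without Saline replicate 3, and 341, 185 and 251 lower without Herb replicates 1, 3 and 4. As deposited 13 members were lower without Saline replicate 2, beside 780 of 11156 genes. After quantile normalization 3 were lower (3.41% of all genes lower and 4.1% higher), and scaled to the protein-coding sum 7 lower and 2 higher (2.85% and 19%). This comparison shares the Saline libraries with that of OVA.

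The counts for other genes of the pathway in OVA vs Saline stand beside 57.9% of all genes lower as deposited, and 20.9% lower and 20.8% higher after rescaling. No list was tested as a whole. Of 16 tested genes for other proteasome factors, 15 were lower in OVA than in Saline as deposited (median -1.22), and 8 were lower and 1 higher after rescaling (median -0.37). Pomp, the maturation factor of the core, was lower on both scales (-1.84 and -0.90, limma adjusted p = 0.00028 and 0.00707). The interferon-inducible activator genes differed: Psme1 was lower rescaled (-0.77, limma adjusted p = 0.00339), while Psme2 stood at -0.01 (adjusted p = 0.921). Shfm1, a small lid subunit, and Adrm1, a ubiquitin receptor, had rescaled differences of -0.36 and -0.19 (limma, adjusted p = 0.101 and 0.282). The gene called higher was Psmg2, a core assembly chaperone (0.45, adjusted p = 0.0141), named here after its value was seen.

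Of 7 tested genes that control proteasome transcription, 7 were lower as deposited and 2 after rescaling, the latter a share near that of all genes. Nfe2l1, the factor known to drive proteasome genes when the proteasome is inhibited, stood at -0.16 rescaled (limma, adjusted p = 0.455). Nfe2l2, the regulator of the antioxidant response, was lower (-1.21, adjusted p = 0.00423), as was its small MAF partner Mafk (-0.84, adjusted p = 0.00564). Irf1, which drives the immunoproteasome genes after interferon, was at -0.46 (limma, adjusted p = 0.288), and it is also in the list of the interferon gamma response.

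Of 10 tested genes of MHC class I antigen processing, 8 were lower as deposited and 2 after rescaling (median -0.27), a share near that of all genes. B2m, the light chain of MHC class I, was lower by the widest margin (-2.65 rescaled, limma adjusted p = 0.000853), and H2-K1, a heavy chain, stood at -0.09 (adjusted p = 0.798). H2-D1, the other heavy chain of the list, was at 0 in every library, so the heavy chains rest on H2-K1 alone. Of 11 tested genes of ubiquitin supply and shuttling, 9 were lower as deposited, and 5 were lower and 1 higher after rescaling (median -0.68). Ubb, which encodes ubiquitin, was lower (-0.77 rescaled, limma adjusted p = 0.00124), as was Uba1, the ubiquitin-activating enzyme (-0.37, adjusted p = 0.0182). Of 9 tested genes of the interferon gamma response, 6 were lower and 1 higher as deposited, and 2 lower and 3 higher after rescaling (median 0.17). Of 14 tested leukocyte markers, 10 were lower as deposited and 5 after rescaling (median -0.71), and of 13 lung structural markers 10 were lower and 1 higher as deposited, and 8 lower and 3 higher after rescaling (median -1.14). Their part in the differences of the proteasome genes was not tested. In Herb vs OVA, 12 of the 16 other proteasome genes, 5 of the 7 transcription control genes and 8 of the 10 MHC class I genes were higher as deposited. As deposited 44% of all genes were higher. After rescaling, 0 genes of these 3 lists passed by limma (4, 0 and 5 at an unadjusted p under 0.05), and 1 gene of the interferon gamma response did: Irgm1, an interferon-inducible GTPase, which was higher (1.70, limma adjusted p = 0.0291) and was named after its value was seen.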

How the data were processed

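RNA was extracted from lung and poly(A) libraries were made with an Illumina TruSeq kit. Per the labels, the authors trimmed reads with cutadapt 1.10, aligned them to mm10 with HISAT2, assembled transcripts with StringTie 1.3.3b and used edgeR 3.16.5. The deposited table holds FPKM per transcript or assembled model for the 10 libraries, without counts or coordinates, and 0 per-sample columns were left unused.

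FPKM values were summed per symbol. Symbols with a mean of at least 1 FPKM were fitted on log2(FPKM + 1) with limma 3.58.1 in R 4.3.3 (all 10 libraries in 1 fit, trended prior, Benjamini-Hochberg adjustment, threshold 0.05), so fold changes of low genes are understated. The fit was run as deposited and after rescaling to a common 75th percentile, and was tested on simulated data. An exact 0 may be a failed estimate, since Gapdh was listed at 0 in 9 libraries. Depth was estimated from the steps between FPKM values under 0.1 and limits the precision of low genes. Ratios of catalytic pairs were compared by two-sided exact permutation.

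The members and the gene lists were chosen with earlier results of these data known. Values per library are given for the catalytic pairs, for the highest, lowest, most and least changed gene of each other class, and up to 6 genes per further list by level, some of which are not reported here. Other scalings, another pseudocount, no filter, the highest row per symbol, fits on 2 groups, a replicate block and leaving out each library were tried. Adding adjoining unnamed models was chosen after seeing the data. Sequences and positions are from RefSeq (GRCm38.p6), not from the authors' assembly.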

Additional observations from a re-analysis of the deposited data

Results flagged for a closer look

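In the 4 Herb libraries, 5 of the 40 genes had 1 library set apart from the other 3 by most of the range of the group, a gap that chance gives in about 1 in 20 genes. The groups of 3 were not examined in this way. Psmb2 had 5.50 FPKM and Psmb4 13.5 FPKM in Herb replicate 3, both below the other Herb libraries, and that library also had the lowest summed level of the members, 272 FPKM. These gaps are in FPKM as deposited. Rescaled, Psmb2 had 5.88 FPKM in that library beside 6.81 to 7.87 FPKM, and Psmb4 14.5 FPKM beside 15.4 to 18.3 FPKM. Neither was then set apart by most of the range. Psmb6 had 12.3 FPKM in Herb replicate 4, above the others. Psmd2 had 20.3 FPKM in Herb replicate 1, and with the adjoining models added this library no longer stood apart (21.1 FPKM beside 16.8 to 20.3 FPKM). Psmb11 had 0.00691 FPKM in Herb replicate 1, under the 0.041 FPKM that 3 fragments would give, and was listed at 0 in the other 3. Zeros in the other 3 fix its gap at the whole range, so it cannot be set against that rate.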

How the results depend on the processing

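The number of members called and their median log2 fold change depended mostly on the scaling. In OVA vs Saline 33 were called as deposited and 19 at the 75th percentile, 14 scaled to the protein-coding sum and 15 after quantile normalization, with medians of -0.69, -0.22 and -0.44. With a pseudocount of 0.1 the median was -1.77. In Herb vs OVA the number was 0, 1 (lower instead of higher) and 0, with medians of 0.22, 0.035 and 0.15. In Herb vs Saline it was 13, 9 and 3, with medians of -0.49, -0.21 and -0.22. Fits without the low-level filter, on the highest row or on 2 groups kept each number within 1.5 times. Leaving out 1 library at a time gave 32 to 34 calls as deposited and 16 to 23 at the 75th percentile in OVA vs Saline (medians -1.65 to -1.47 and -0.72 to -0.59), 21 to 28 and 0 to 1 in Herb vs OVA (0.64 to 0.87 and 0.18 to 0.30), and 13 to 25 and 0 to 15 in Herb vs Saline (-0.93 to -0.77 and -0.58 to -0.39). Over the same fits, of 11079 to 11312 genes tested, 5792 to 6466 were lower in OVA vs Saline as deposited. At the 75th percentile 1731 to 2322 were lower and 1756 to 2242 higher. In Herb vs OVA 3196 to 5014 were higher as deposited, and 14 to 548 higher and 12 to 319 lower at the 75th percentile. In Herb vs Saline 780 to 2827 were lower as deposited, and 18 to 933 lower and 14 to 999 higher at the 75th percentile. The cause of these shifts was not tested.

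The replicate numbers do not pair the libraries: deviations of libraries with the same number correlated at -0.01 to 0.10. With the replicate block, 33, 21 and 20 members were called as deposited in OVA vs Saline (lower), Herb vs OVA (higher) and Herb vs Saline (lower). Of all 11205 genes, 6251, 3992 and 1193 were called in these directions. With the block at the 75th percentile the numbers were 18, 0 and 4 and the medians -0.69, 0.18 and -0.58. Of all 11176 genes, 2189 were then lower and 2177 higher in OVA vs Saline. In Herb vs OVA 0 were lower and 2 higher, and in Herb vs Saline 288 were lower and 269 higher.

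With the adjoining models added, the medians at the 75th percentile were -0.57, 0.20 and -0.47 and no member was called in Herb vs OVA (0). The Psmb10/Psmb7 difference in Herb vs Saline was 1.11, the core shares were 51.6%, 39.0% and 44.97% in Saline, OVA and Herb, the regulatory share of Saline 43.5%, and the immunoproteasome share of OVA 7.58%. On the highest row per symbol the regulatory share of Saline was 39.6%. Leaving out 1 library moved the log2 ratio Psmb10/Psmb7 over 1.63 to 2.83, -0.45 to 0.18 and 1.47 to 2.67 in the 3 comparisons, Psmb9/Psmb6 over 0.40 to 1.47, -1.11 to -0.03 and 0.03 to 0.60, and Psmb8/Psmb5 over -0.22 to 0.28, -0.40 to -0.17 and -0.50 to -0.0017.

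For genes whose values are given and that were called as deposited or under the alternative, the direction turned 39 times. It turned 49 times more where neither value was called, as for Psmb10 in OVA vs Saline (0.69 at the 75th percentile) and Psmb1, Psmc4, Psmd4 and Psmd9 in Herb vs OVA (-0.20, -0.36, -0.082 and -0.34). The called turns follow. In OVA vs Saline, log2 fold changes scaled to the protein-coding sum were 1.07 for Psmb10, 0.15 for Psmb8, 0.050 for Psmb5, 0.19 for Psmc4, 0.15 for Psmd4, 0.24 for Psmd1, 0.027 for Psmd11, 0.56 for Psmd13, 0.17 for Psmd5, 0.051 for Psmd10 and 1.02 for Psmd9. After quantile normalization they were 0.13 for Psmd4, 0.16 for Psmd1, 0.40 for Psmd13 and 0.57 for Psmd9, and at the 75th percentile, with and without adjoining models, 0.090 for Psmd13 and 0.65 for Psmd9. Psmb10 with its adjoining model stood at 0.43 at the 75th percentile. In Herb vs OVA, values scaled to the protein-coding sum were -0.048 for Psmb8, -0.20 for Psmc3, -0.20 for Psmd1, -0.15 for Psmd11, -0.30 for Psmd13, -0.21 for Psmd5 and -0.52 for Psmd9. After quantile normalization they were -0.14 for Psmc3, -0.15 for Psmd1, -0.063 for Psmd11, -0.24 for Psmd13 and -0.050 for Psmd5, and at the 75th percentile, with and without adjoining models, -0.10 for Psmd13 and -0.021 for Psmd5. Psma4 with adjoining models stood at 0.84. In Herb vs Saline, Psmd1 stood at 0.039 and 0.012 scaled to the protein-coding sum and after quantile normalization. Depth, estimated from FPKM steps, limits the genes of low level most.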
